A study of Mus musculus with 23 samples.

Results

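Ms3Yah mice carry 1 copy of a segment of chromosome 16, with the genes from Hspa13 to App removed from the other homologue. The 12 arrays described here are those whose genotype label named the deletion (6 Ms3Yah mice) or its diploid control (6 littermates), out of 23 arrays in the series. Each array measured total RNA of the gastrocnemius, a calf muscle made mostly of fast fibres, from 1 adult mouse. The comparison asked which muscle transcripts differed in monosomic mice beyond the 15 genes of the interval.

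The Ms3Yah group was hemizygous for the interval in every tissue and from conception, so the arrays do not separate effects that began in muscle from those that began elsewhere. Hspa13 and App, at its ends, are lost with the genes between them. The deleted chromosome was made in Hprt-deficient embryonic stem cells with vectors that carried DNA of the 129S5 strain, parts of Hprt and drug resistance cassettes, and the line was then crossed to C57BL/6J for several generations. The label gives the strain of both groups as C57BL6/J. The diploid littermates carried 2 copies of the interval and were matched to the Ms3Yah mice for age and sex according to the methods, but neither age nor sex is given for single mice.

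Skeletal muscle draws on mitochondria for sustained work. Electrons from the citric acid cycle and from fatty acid oxidation pass through complexes I to IV of the respiratory chain, and complex V uses the resulting proton gradient to make ATP. The coactivator PGC-1α, encoded by Ppargc1a, acts with the ERR and NRF factors to raise transcription of many of these genes. Several interval genes touch this system directly. Atp5j encodes coupling factor 6 of complex V, Mrpl39 a protein of the mitochondrial ribosome, and Gabpa the DNA-binding subunit of GABP, also called NRF-2. Nrip1 encodes RIP140, a corepressor of nuclear receptors that restrains oxidative genes in mouse muscle.

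All 12 arrays carried the transcripts of muscle fibres. Ckm, the muscle creatine kinase, had mean signals of 33734 ± 4417 in Ms3Yah and 32232 ± 3585 in diploid muscle (SD, n = 6 each), and Myh4, the fast IIb myosin heavy chain, 32033 ± 3200 in Ms3Yah and 33555 ± 1817 in diploid muscle. Pairs of arrays correlated at between 0.971 and 0.992 across detected genes. The arrays fell into 2 sets by Xist, the RNA of the inactive X chromosome, with signals of at least 736 on 6 arrays and at most 94.5 on the other 6. Each genotype had 3 mice on either side. Eif2s3y, a gene of the Y chromosome, divided the arrays into the same 2 sets, with 87.3 to 117 where Xist was high and 496 to 721 where it was low. The first component of variation, with 30.6% of the variance, followed the level of adipocyte transcripts within both genotypes, and the second, with 18.9%, followed Xist. Neither component separated the genotypes.

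Signals below are quantile-normalised probe intensities. A gene was represented by its brightest probe, and counted as detected when that probe stood above negative controls (detection p below 0.05) on at least 6 of the 12 arrays, which left 9797 genes. Tests are the moderated test of limma on log2 signals, with Benjamini-Hochberg adjustment over all 44363 expressed probes. At an adjusted p below 0.05, 8 probes were called (0.018% of those tested), 1 higher (0.00225%) and 7 lower (0.0158%) in Ms3Yah muscle. At an unadjusted p below 0.05, 2291 probes were past the threshold (5.16%), against 2218.15 expected by chance, with 1201 higher (2.71%) and 1090 lower (2.46%).

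Of the 15 interval genes, 9 were detected. All 9 had lower mean log2 signals in Ms3Yah muscle, and 8 were lower at an unadjusted p below 0.05. Their median fold of 0.719 and median log2 difference of -0.46 compare with a median log2 difference of -0.0046 over the 9788 detected genes outside the interval. The interval median was -0.89 with background correction by neqc, -0.92 in the processed table of the authors, and -0.13 when undetected interval genes were included, and 1 of the 9 genes was positive without diploid mouse 37040. Of the interval's probes, 5 passed the adjusted threshold, 2 of App, 2 of Atp5j and 1 of Jam2.

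**Figure D1:**
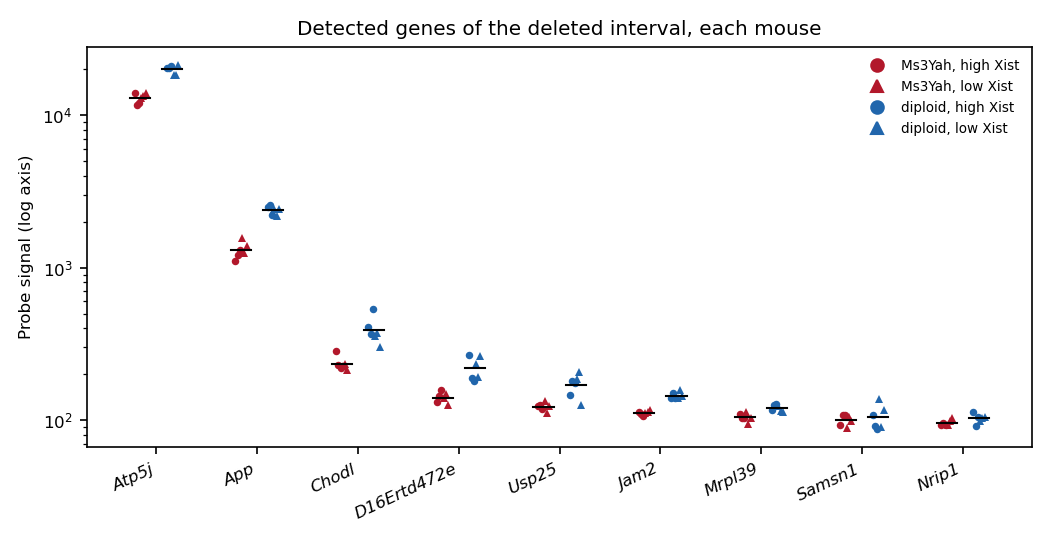
Signals of the 9 detected interval genes in each mouse, on a log axis, Ms3Yah (red) left of diploid (blue). Circles are mice with high Xist, triangles mice with low Xist, and bars group means. App, Atp5j, Chodl, D16Ertd472e and Jam2 show no overlap between the groups, while Samsn1 and Nrip1 lie close to background.

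App, which encodes the amyloid precursor protein, had signals of 1112 to 1557 (median 1278) in Ms3Yah mice and 2187 to 2569 (median 2423) in diploid mice. The groups did not overlap, and the fold was 0.548 (log2 -0.87 ± 0.07 SE, limma adjusted p = 0.000489). Its second called probe gave a fold of 0.641 (adjusted p = 0.0427), a call that held under 9 of 24 alternatives, while another detected probe of App had 117 ± 11.3 in Ms3Yah and 115 ± 7.88 in diploid muscle, near background. Atp5j was the brightest gene of the interval, with 11580 to 13991 (median 13084) in Ms3Yah and 18229 to 21170 (median 20401) in diploid muscle. Its fold was 0.650 on that probe and 0.551 on a dimmer one (adjusted p = 0.0012 and 0.00189), and the brighter probe lost its call under median scaling of the arrays (0.154). Jam2, a junctional adhesion molecule of endothelium, had 106 to 117 in Ms3Yah and 139 to 158 in diploid mice (fold 0.772, log2 -0.37, adjusted p = 0.00192). The size depended on the processing, and the log2 difference of Jam2 was -0.89 with neqc and -1.3 in the processed table.

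Chodl, a membrane lectin that muscle expresses, and D16Ertd472e also showed no overlap, with folds of 0.600 and 0.639 and adjusted p of 0.11 and 0.118. Chodl reached 212 to 285 in Ms3Yah mice, and 301 to 535 in diploid mice. With the Xist split as a term in the fit, Chodl passed the threshold (adjusted p = 0.0417), as it did without diploid mouse 37146 (0.0461) or 37075 (0.0413). Usp25, a deubiquitinase, and Mrpl39 had folds of 0.719 and 0.867, with overlap between the groups and adjusted p of 0.476 and 0.495. Nrip1, at 96.1 ± 4.35 in Ms3Yah and 103 ± 6.89 in diploid muscle, was detected on 7 arrays only, and its adjusted p was 0.968. Samsn1, an adaptor of blood cells, was close to background at 101 ± 8.26 in Ms3Yah and 106 ± 19.5 in diploid muscle.

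The other 6 interval genes were not detected on enough arrays. Gabpa was above negative controls on at most 4 arrays with any of its 4 probes, and its brightest probe had 91.5 ± 3.24 in Ms3Yah and 100 ± 8.85 in diploid muscle (adjusted p = 0.968). Hspa13, an ATPase of the Hsp70 family, Cxadr, Btg3, Tmprss15 and Ncam2 had at most 2 arrays above negative controls, and their folds ran from 0.962 to 1.04. Their dosage could not be read at this brightness.

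Atp5j and Gabpa are transcribed away from each other from one short stretch of chromosome 16, and the promoter window of Gabpa, 250 bases before to 50 after its RefSeq start, overlaps 1 of the 2 windows of Atp5j. The stretch is shown because the gene for a GABP subunit and the complex V gene of the interval share it. It holds the core letters bound by GABP and other ETS factors, CCGGAAG or its reverse complement on the other strand. Of 32851 RefSeq promoter windows of this length 8.86% hold these letters, and of the windows of detected genes outside the interval 16.7%. Capitals mark that match in the Atp5j window (GRCm38.p6, chr16:84834927-84835226, minus strand).
Atp5j: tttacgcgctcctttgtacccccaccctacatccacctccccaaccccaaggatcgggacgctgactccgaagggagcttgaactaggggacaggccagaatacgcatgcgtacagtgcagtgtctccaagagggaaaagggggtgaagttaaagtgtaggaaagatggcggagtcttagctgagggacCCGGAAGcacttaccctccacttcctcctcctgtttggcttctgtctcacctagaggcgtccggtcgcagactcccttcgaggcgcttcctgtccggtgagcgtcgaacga

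Genes that flank the interval keep 2 copies, and none of them passed the adjusted threshold. Of 11 detected neighbours, 7 had a positive and 4 a negative log2 difference, with a median of 0.01 that was -0.0045 under median scaling of the arrays. N6amt1, a methyltransferase, had 609 ± 111 in Ms3Yah and 490 ± 46.5 in diploid muscle (log2 0.30, adjusted p = 0.897). Sod1, the cytosolic superoxide dismutase, had 5529 ± 505 in Ms3Yah and 6159 ± 424 in diploid muscle (log2 -0.16, adjusted p = 0.949). Usp16 and Tiam1 had log2 differences of 0.12 and -0.23, and Bach1, Cct8, Ltn1, Gbe1, Adamts1, Map3k7cl and Robo1 lay between -0.08 and 0.09.

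Besides the probes of interval genes, 3 probes passed the adjusted threshold, of which 2 are described here. The probe of LOC654426, annotated as a pseudogene of the ATP synthase subunit that Atp5j encodes, had signals of 3378 to 4344 (median 3480) in Ms3Yah mice and 5277 to 6955 (median 5951) in diploid mice (fold 0.600, adjusted p = 0.00251). Under median scaling the call was lost, with a log2 difference of -0.80 and an adjusted p of 0.381. Whether this probe also binds Atp5j transcripts was not tested, and its fold was close to the 0.551 and 0.650 of the Atp5j probes. The annotation gave this probe no chromosome. In the Ts2Yah line of the series, labelled as a duplication and not part of the fit, its signals went the other way. They were 7034 to 9136 in 6 Ts2Yah mice and 5799 to 6904 in 5 of their diploid mice.

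The only probe called higher is annotated to the nonagouti gene, a, on chromosome 2. The gene encodes a ligand of melanocortin receptors known for its control of coat colour. Its signals were 151, 158, 146, 170, 190 and 171 in the 6 Ms3Yah mice, and 86.8, 89.3, 88.5, 89.5, 93.3 and 86.5 in the 6 diploid mice. The probe was detected on 6 of 6 Ms3Yah arrays and 0 of 6 diploid arrays. Among the genes counted as detected, it was the only one that no array of one genotype showed. The rule for detected genes keeps such a gene only if all 6 arrays of the other genotype detect it, so genes seen on fewer were not counted. The measured ratio was 1.85 (log2 0.88 ± 0.06 SE, adjusted p = 3.5e-05), and because the diploid signal was at background the level was at least 1.68-fold higher in Ms3Yah muscle. The bound sets the Ms3Yah mean against, on each diploid array, the higher of the probe's own signal and the lowest signal of any detected probe.

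In the Ts2Yah line of the same series, which was not part of the fit, the nonagouti probe was detected on 0 of 6 Ts2Yah and 0 of 5 diploid arrays, with signals of 80.2 to 98.4 in Ts2Yah and 79.6 to 88.2 in their diploid mice. The list of nonagouti and its neighbours on chromosome 2 held 18 detected genes, of which 8 had a positive log2 difference (median -0.01). Besides nonagouti, 1 of them was past an unadjusted p of 0.05, Zfp341 with a fold of 0.907. Whether the nonagouti signal came from the chromosome 2 locus or from elsewhere was not tested. Nonagouti was called under all 24 alternative settings, with log2 differences of 0.78 to 2.18, and within mice of high and of low Xist it was 0.78 and 0.98 higher on the log2 scale.

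Across the 9788 detected genes outside the interval, 1 gene, nonagouti, passed the adjusted threshold (0.0102%), and the next adjusted p was 0.179. At an unadjusted p below 0.05, 772 genes were past the threshold (7.89%), where 489.4 would be expected by chance, with 401 higher (4.1%) and 371 lower (3.79%) in Ms3Yah muscle. With the arrays scaled to one median in place of quantile normalisation, 112 were higher and 285 lower, so the balance of directions depends on the scaling. In 15 genes every Ms3Yah mouse lay above every diploid mouse (0.153%), and in 14 every Ms3Yah mouse lay below (0.143%). Among this many genes some would separate in this way by chance, and their number was not estimated. A log2 difference above 0 was found in 47.4% of the genes. The differences below are therefore given as values, and a gene described as higher or lower past an unadjusted p of 0.05 did not pass adjustment unless that is stated.

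The genes with the smallest p after nonagouti included several that serve mitochondria. Cyc1, cytochrome c1 of complex III, had signals of 5385 to 6721 (median 6279) in Ms3Yah mice and 4626 to 5178 (median 5099) in diploid mice (log2 0.30 ± 0.06 SE, limma adjusted p = 0.274). It passed the threshold under 1 of 24 alternatives, without Ms3Yah mouse 37072 (0.0457). Coq5 and Coq6, enzymes of coenzyme Q synthesis, had folds of 1.2 and 1.14 (adjusted p = 0.274 and 0.398). Every Ms3Yah mouse exceeded every diploid mouse for Cyc1 and Coq6, while for Coq5 the Ms3Yah range of 2260 to 2639 and the diploid range of 1913 to 2288 overlapped. Fastkd1, a mitochondrial RNA-binding protein, showed no overlap at 173 to 192 in Ms3Yah and 146 to 170 in diploid muscle.

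Others had more varied roles. Eva1b, a membrane protein, had 209 to 246 (median 238) in Ms3Yah mice and 179 to 208 (median 196) in diploid mice. The fold was 1.21 with no overlap. Its limma adjusted p of 0.179 was the lowest after nonagouti. It passed the threshold under 1 of 24 alternatives, without Ms3Yah mouse 37074 (0.0316). Akr1b10, an aldo-keto reductase, had a fold of 1.29, also without overlap. Pank1, which starts coenzyme A synthesis, Rap1gap, which turns off the GTPase Rap1, As3mt, an arsenic methyltransferase, Pptc7, a mitochondrial phosphatase, and Poldip2 overlapped between the groups, with folds of 1.32, 1.51, 1.41, 1.28 and 1.18. For As3mt the overlap came from Ms3Yah mouse 37148, at 232 against 316 to 377 in the other 5 Ms3Yah mice. The limma adjusted p of As3mt was 0.443 with all mice and 0.00428 without that mouse. It passed under 1 of 24 alternatives, and leaving out the mouse that overlaps favours a smaller p.

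Among the lower genes, Atp1b2, a beta subunit of the sodium pump, had signals of 1255 to 1568 (median 1379) in Ms3Yah mice and 1619 to 2061 (median 1749) in diploid mice. Its fold was 0.769 with no overlap (log2 -0.38 ± 0.07 SE, limma adjusted p = 0.28), and it passed with the Xist split as a term (adjusted p = 0.0417). Sap30, a subunit of a histone deacetylase complex, had 458 to 543 in Ms3Yah and 559 to 726 in diploid muscle. Both genes were lower in each Ms3Yah mouse than in any diploid mouse. The same held for Celsr2, a cadherin of planar polarity, Laptm4b, Ltbr, the lymphotoxin beta receptor, Gfod2, Dolpp1 and Faf2, with folds between 0.825 and 0.894. Daxx, Prcc, Nrn1 and Nfe2l1, a transcription factor that drives proteasome genes, overlapped, with folds between 0.859 and 0.873.

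**Figure D2:**
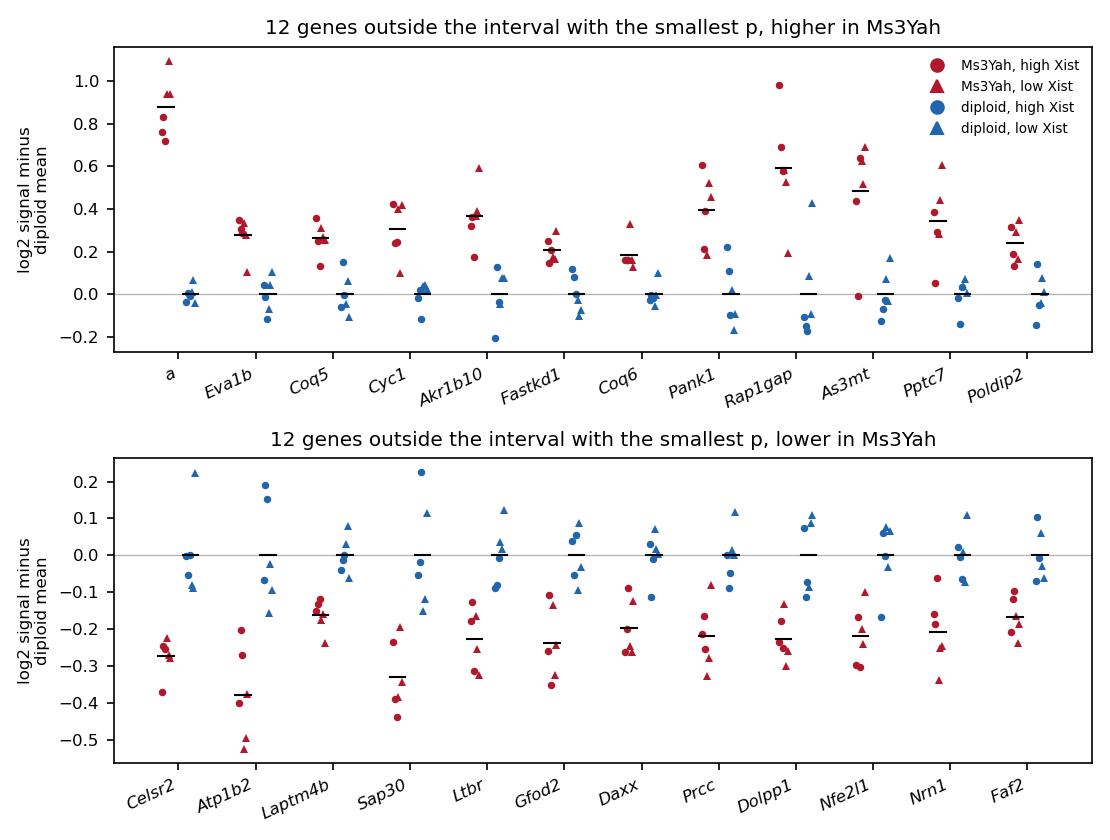
Log2 signal of each mouse minus the diploid mean, for the 12 genes outside the interval with the smallest p higher (top) and lower (bottom) in Ms3Yah muscle, Ms3Yah (red) left of diploid (blue), with group means as bars, high-Xist mice as circles and low-Xist mice as triangles. Nonagouti (a), at a log2 difference of 0.88, is the only one past the adjusted threshold.

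Besides nonagouti, the largest folds outside the interval belonged to genes whose levels overlapped between the groups. Angptl7, a secreted protein of tendon and eye, had 833 to 2146 (median 1232) in Ms3Yah mice and 411 to 869 (median 601) in diploid mice, a fold of 2.11 (limma adjusted p = 0.476). Col1a1, a chain of type I collagen, had 1720 to 2797 (median 1933) in Ms3Yah mice and 992 to 1961 (median 1257) in diploid mice, a fold of 1.55. Rbp7 and 2900060B14Rik had folds of 1.70 and 1.65. In each of the 4 genes the highest diploid mouse exceeded the lowest Ms3Yah mouse.

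At the other end, Sncg, a synuclein that fat cells express, had 258 to 514 (median 366) in Ms3Yah mice and 254 to 1221 (median 750) in diploid mice, a fold of 0.508. Pde4b, a cyclic AMP phosphodiesterase, had 299 to 814 in Ms3Yah mice and 658 to 1246 in diploid mice (fold 0.549, limma adjusted p = 0.509). Fos, an immediate early factor, Ffar2 and Pnpla3, a lipid droplet protein, had folds of 0.572, 0.584 and 0.621. All 5 overlapped between the groups.

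The respiratory chain was described by the nuclear genes of each complex. Of 34 detected complex I genes, 29 had a positive log2 difference (median 0.09), and 7 were higher past an unadjusted p of 0.05 with 0 lower. Complex III had 9 of 10 positive, complex IV 15 of 17 (median 0.14), and complex V outside the interval 12 of 14, with 3, 9 and 2 genes higher past that p and 0 lower in each. Complex II had 3 of 6 positive and 1 gene, the assembly factor Sdhaf1, lower. None of these genes passed adjustment. For these and the lists below, the shares over the 9788 detected genes outside the interval were 4.1% higher and 3.79% lower past that p. A positive difference was found in 47.4%. The complex V count became 4 without Ms3Yah mouse 37448 or 37072, or without diploid mouse 37145 or 37041.

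Ndufa9, a complex I subunit, had signals of 8496 to 9608 (median 9234) in Ms3Yah mice and 6644 to 8460 (median 7869) in diploid mice, with no overlap (fold 1.18). Cox5b, Cox4i1 and Cox7a1, subunits of complex IV among the brightest probes on the array, had folds of 1.13, 1.10 and 1.15. Sco1, which delivers copper to complex IV, had a fold of 1.17. The mean level of complex IV genes, centred on all 12 mice, was 0.01 to 0.12 on the log2 scale in Ms3Yah mice and -0.08 to -0.01 in diploid mice, so the groups did not overlap. In complex V, Atp5pb and Atp5j2 had folds of 1.12 and 1.12, beside the 0.650 of Atp5j itself.

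These counts shrank when the arrays were scaled to one median. Complex I then had 0 genes higher past an unadjusted p of 0.05 and 21 of 34 positive, complex IV 1 and 14 of 17, complex III 1 and complex V 0. The medians stayed above 0, at 0.04 for complex I and 0.10 for complex IV, while the median of all genes outside the interval was -0.03. Within mice of high and of low Xist the complex IV medians were 0.13 and 0.14. Among genes with a mean signal above 5000, the range that holds many of these transcripts, 9.06% were higher and 5.23% lower past that p under quantile normalisation. Of these 287 genes, 50.2% had a positive log2 difference.

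**Figure D3:**
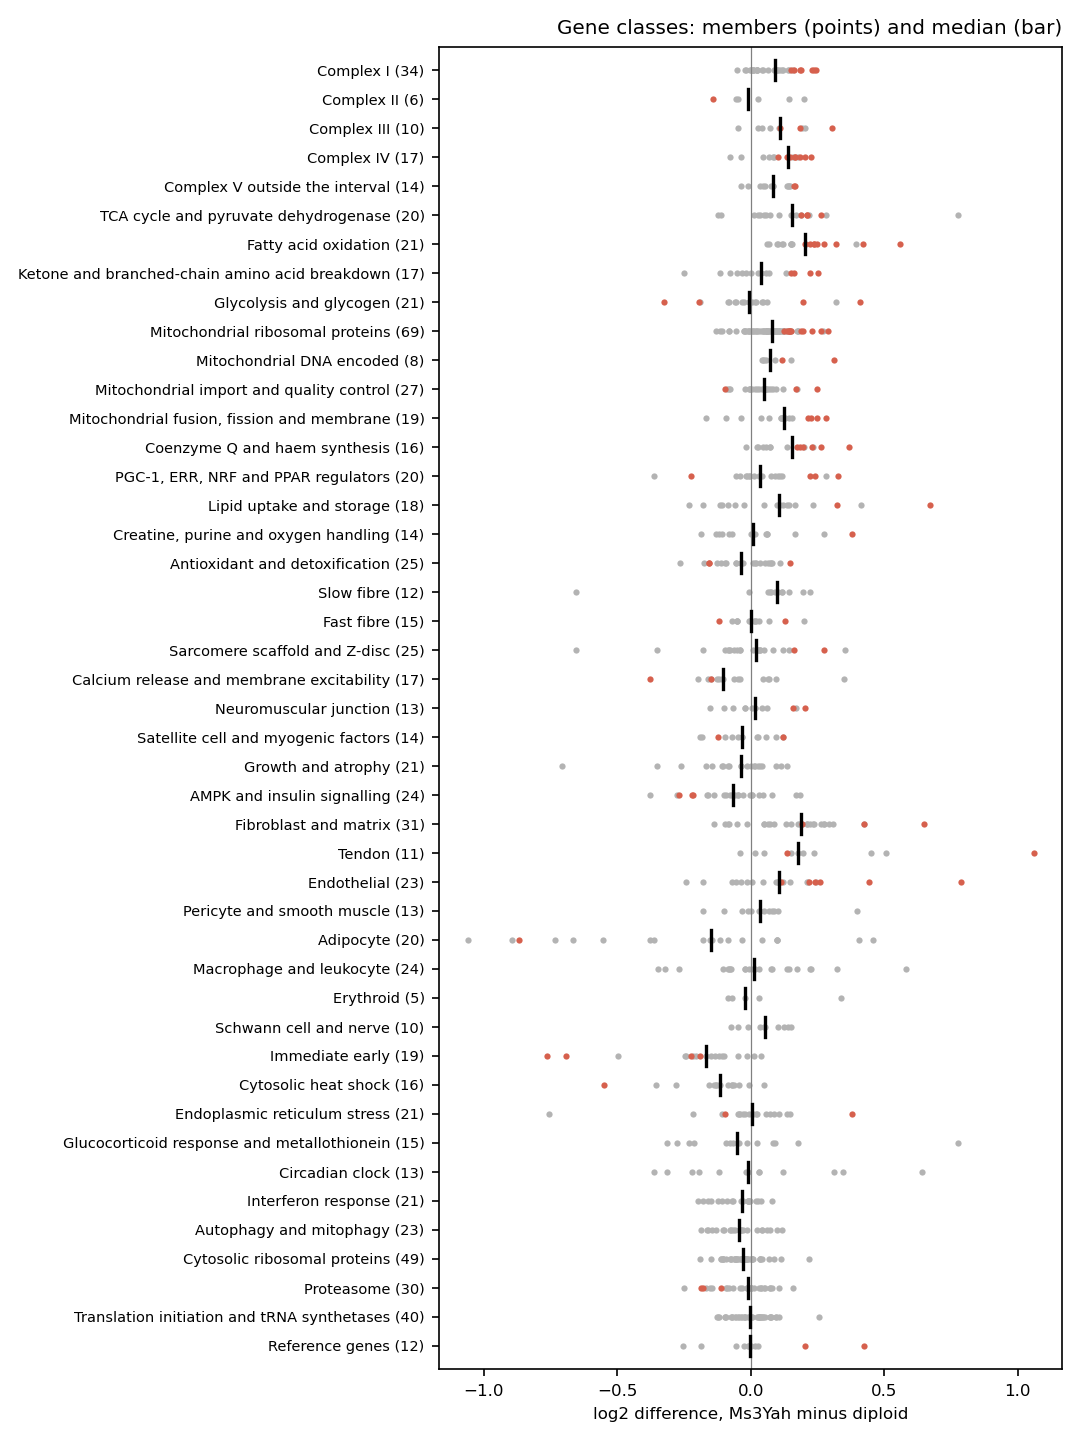
Log2 difference, Ms3Yah minus diploid, of the detected members of each gene list (points, red where the unadjusted p is below 0.05) and the list median (bar), with the number detected in brackets. All fatty acid oxidation members lie right of 0, while immediate early, heat shock and adipocyte medians lie left of it.

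Fatty acid oxidation had every detected member positive, 21 of 21, with a median of 0.20 and 9 genes higher past an unadjusted p of 0.05. Acaa2, the thiolase that ends each round of beta-oxidation, had signals of 1352 to 1742 (median 1536) in Ms3Yah mice and 823 to 1677 (median 959) in diploid mice. The overlap came from diploid mouse 37094, whose 1677 stood with the Ms3Yah mice. With all mice, the lowest limma adjusted p of any gene in this list was 0.637. Without diploid mouse 37094, Acaa2 passed the adjusted threshold (0.70 on the log2 scale, limma adjusted p = 0.015). Acaa2 passed under 1 of 24 alternatives, and leaving out the mouse that overlaps favours a smaller p. Hadhb, of the trifunctional protein, and Etfa and Etfb, which carry electrons from the oxidation steps to the chain, had folds of 1.21, 1.18 and 1.15. The list mean was 0.02 to 0.23 in Ms3Yah mice and -0.20 to -0.11 in diploid mice other than 37094, which had 0.14. Under median scaling 20 of 21 members stayed positive with a median of 0.15, and 2 were higher past that p.

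In the citric acid cycle and pyruvate dehydrogenase, 18 of 20 detected genes were positive (median 0.15) and 4 were higher past an unadjusted p of 0.05. Fh1, fumarase, had 3875 to 4561 (median 4373) in Ms3Yah mice and 3120 to 3905 (median 3634) in diploid mice, a fold of 1.2. The groups touched only at their edges. Idh3a, Mdh2 and Pdhb had folds of 1.15, 1.14 and 1.17. Median scaling left 1 gene higher past that p and 15 of 20 positive, and leaving out diploid mouse 37075 gave 7.

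Coenzyme Q and haem synthesis had 15 of 16 positive members (median 0.16), with 6 higher past an unadjusted p of 0.05. Alas1, which begins haem synthesis, had signals of 4582 to 6877 (median 5243) in Ms3Yah mice and 3159 to 4792 (median 4288) in diploid mice, a fold of 1.29. The list mean was 0.02 to 0.14 in Ms3Yah mice and -0.18 to -0.01 in diploid mice. Median scaling left 1 gene past that p and 12 positive.

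The promoter window of Coq6 is shown because this gene had no overlap between the groups and its window holds these ETS letters. The stretch shared by Atp5j and Gabpa holds the same letters. Cyc1, Sco1, Ppargc1a and Cox5b were searched too, and of these only Sco1 gave a window with the letters. Cyc1 and Ppargc1a also had no overlap between the groups, so the window shown was picked for its letters. A link between the letters and the change was not tested. Capitals mark CCGGAAG in RefSeq sequence (GRCm38.p6, chr12:84361718-84362017, plus strand).
Coq6: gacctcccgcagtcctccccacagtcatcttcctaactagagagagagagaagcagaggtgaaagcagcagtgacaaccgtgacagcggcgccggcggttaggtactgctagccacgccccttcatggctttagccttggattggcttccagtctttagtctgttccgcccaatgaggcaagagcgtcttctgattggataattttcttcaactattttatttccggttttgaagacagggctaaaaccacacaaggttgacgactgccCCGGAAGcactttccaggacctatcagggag

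The letters CCGGAAG, on either strand, were in a window of 7 of 16 complex IV genes with a RefSeq window, 24 of 66 mitochondrial ribosomal protein genes, 5 of 17 coenzyme Q and haem genes, 4 of 33 complex I genes and 2 of 19 fatty acid oxidation genes. Cytosolic ribosomal protein genes held them in 24 of 56 cases. Over detected genes outside the interval the share was 19.8%. Among genes higher past an unadjusted p of 0.05 it was 19%, and among genes lower it was 19.9%.

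Mitochondrial ribosomal proteins had 55 of 69 detected members positive (median 0.08), 11 higher and 0 lower past an unadjusted p of 0.05, in contrast with Mrpl39 of the interval at a fold of 0.867. Mrpl15 showed no overlap, with 2030 to 2413 in Ms3Yah mice and 1684 to 2010 in diploid mice. Mrpl46 and Mrpl4 had folds of 1.2 and 1.18. Median scaling left 1 gene higher and 43 of 69 positive, and leaving out Ms3Yah mouse 37148 gave 17 higher. The 8 detected transcripts of mitochondrial DNA were all positive with a median of 0.07, from ND4L with a fold of 1.23 to CYTB with 1.03.

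Of genes for mitochondrial shape and membrane, 16 of 19 were positive, with 4 higher past an unadjusted p of 0.05, which became 7 without Ms3Yah mouse 37448 and 0 under median scaling. Ppif, cyclophilin D of the permeability pore, had 1331 to 1816 (median 1584) in Ms3Yah mice and 1208 to 1304 (median 1277) in diploid mice, with no overlap (fold 1.22). Oma1, a stress-activated protease, and Dnm1l, the fission GTPase DRP1, had folds of 1.19 and 1.16. In the import list 19 of 27 were positive, with a median of 0.05 that was -0.0029 under median scaling, and Hspa9, the matrix chaperone mortalin, had a fold of 1.18.

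Ppargc1a was among the regulators with the smallest p. Its signals were 214 to 295 (median 231) in Ms3Yah mice and 175 to 205 (median 189) in diploid mice (log2 0.33 ± 0.08 SE, limma adjusted p = 0.509). Each Ms3Yah mouse lay above each diploid mouse. Perm1, which acts with PGC-1 and ERR in muscle, and Esrra, which encodes ERRα, had folds of 1.19 and 1.17, and Rxrg, a retinoid receptor, 0.867. The regulators as a list had 12 of 20 positive members and a median of 0.04, with 3 higher past an unadjusted p of 0.05, or 1 without Ms3Yah mouse 37038 or diploid mouse 37146 or 37041.

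Adk, adenosine kinase, also showed no overlap, with 1821 to 2513 (median 1954) in Ms3Yah mice and 1275 to 1751 (median 1560) in diploid mice (fold 1.30, limma adjusted p = 0.476). Plin5, a lipid droplet protein that meets mitochondria, had a fold of 1.53, and Gpihbp1, which holds lipoprotein lipase on capillaries, 1.25. Ketone and branched-chain amino acid breakdown had 11 of 17 members positive and a median of 0.04, which was -0.02 under median scaling. Glycolysis and glycogen had 9 of 21 members positive and a median of -0.01. Gys1, glycogen synthase, had a fold of 1.33, and Phka1 and Pgm1 0.791 and 0.871. Antioxidant genes had 11 of 25 positive, or 7 without Ms3Yah mouse 37148, with Sod2, the mitochondrial superoxide dismutase, at a fold of 1.11 and Sod1 at 0.898.

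**Figure D4:**
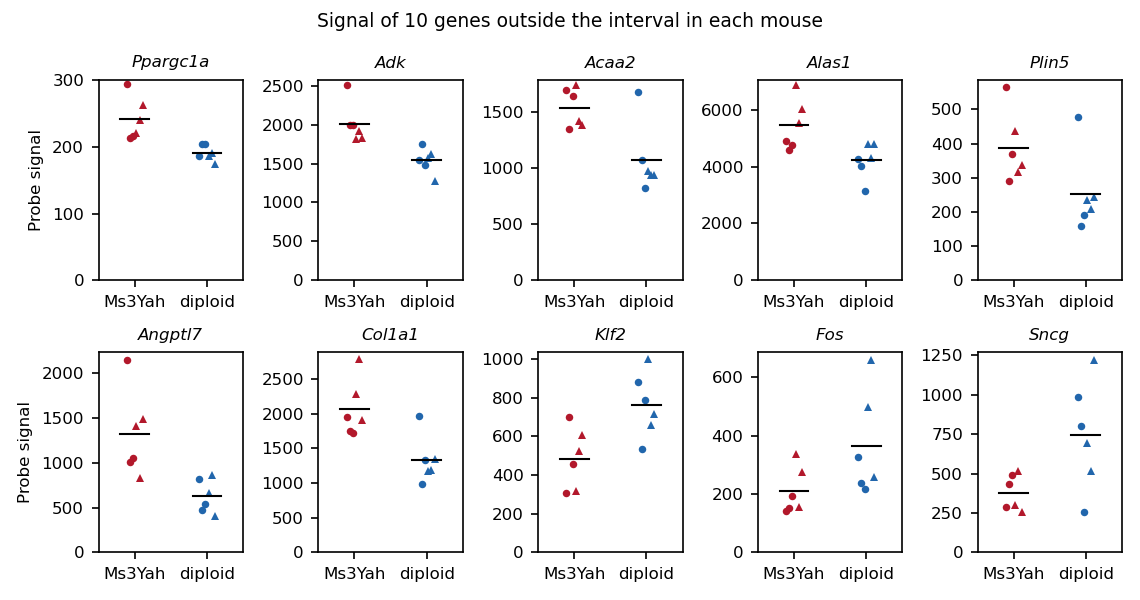
Probe signal of 10 genes outside the interval in each mouse, on axes from 0, Ms3Yah (red) left of diploid (blue), with group means as bars, high-Xist mice as circles and low-Xist mice as triangles. Ppargc1a and Adk show no overlap, 1 diploid mouse reaches the Ms3Yah range for Acaa2, and Angptl7, Col1a1, Klf2, Fos and Sncg overlap.

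Contractile genes had few members past an unadjusted p of 0.05. Slow fibre genes had 10 of 12 members positive with a median of 0.10 but 0 past an unadjusted p of 0.05. The direction rested on single mice, since without Ms3Yah mouse 37448 only 1 of 12 was positive (median -0.10) and without diploid mouse 37040 only 4 (median -0.05). The levels varied widely, with Myh7, the slow myosin heavy chain, at 229 to 1035 in Ms3Yah mice and 178 to 587 in diploid mice. Fast fibre genes had 8 of 15 positive and a median of 0.00. Tnnc2 and Myl1, fast troponin C and a fast myosin light chain, had folds of 0.920 and 1.09. Actn2, a Z-disc actinin, had a fold of 1.21.

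In the calcium and excitability list, 5 of 17 were positive (median -0.11), with Atp1b2 and Ryr1, the calcium release channel, lower past an unadjusted p of 0.05 and a fold of 0.901 for Ryr1. Of AMPK and insulin signalling genes 7 of 24 were positive (median -0.07), or 3 without diploid mouse 37094, and Slc2a1, the glucose transporter GLUT1, Tsc1, an inhibitor of mTORC1, and Prkab2, an AMPK subunit, were lower with folds of 0.829, 0.859 and 0.856. That count of 3 became 6 without diploid mouse 37094, and 5 without diploid mouse 37145 or Ms3Yah mouse 37148. Lrp4 and Agrn, which organise the neuromuscular junction, had folds of 1.12 and 1.15. The growth and atrophy genes had 9 of 21 positive, or 5 without diploid mouse 37040, and 0 past that p in either direction. Fbxo32, the atrophy ligase atrogin-1, spanned 423 to 2513 in Ms3Yah mice and 881 to 3061 in diploid mice.

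Transcripts of other cell types varied between mice within each genotype. A lower share of a cell type and less RNA per cell cannot be told apart in whole muscle. Adipocyte genes had 6 of 20 detected members positive and a median of -0.15, which became 3 of 20 and -0.23 without Ms3Yah mouse 37148 or 37448, and their list mean was -0.90 to 0.61 in Ms3Yah mice and -0.78 to 0.68 in diploid mice on the log2 scale. Adipoq, the fat cell hormone adiponectin, spanned 365 to 4037 in Ms3Yah mice and 497 to 4803 in diploid mice. The adipocyte median was 0.18 within high-Xist and -0.44 within low-Xist mice. With the adipocyte level as a term in the fit, 10 fatty acid oxidation and 9 complex IV genes were higher past an unadjusted p of 0.05. This term was chosen after seeing the data and was measured on the same arrays. Whether fat content underlies differences in other lists was not tested.

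Fibroblast and matrix genes had 25 of 31 members positive (median 0.19) with 3 higher past an unadjusted p of 0.05, and tendon genes 10 of 11 (median 0.18) with 2. Pcolce, which promotes collagen processing, had 485 to 700 (median 554) in Ms3Yah mice and 388 to 546 (median 394) in diploid mice, a fold of 1.34. In mice with low Xist the medians of the lists were 0.30 and 0.34, and in mice with high Xist 0.01 and 0.01, a difference between the sides that was not tested for lists. Without diploid mouse 37094, 8 matrix genes were higher past that p, and without Ms3Yah mouse 37448, 6, while 4 tendon genes were higher without Ms3Yah mouse 37072.

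Endothelial genes had 17 of 23 positive members (median 0.10) and 6 higher past an unadjusted p of 0.05, which became 1 under median scaling and 10 without diploid mouse 37075. Ramp2, a receptor partner of adrenomedullin signalling, had 970 to 1571 (median 1211) in Ms3Yah mice and 761 to 1096 (median 859) in diploid mice, a fold of 1.36. Esam and Robo4 had folds of 1.16 and 1.19. Macrophage and leukocyte genes had 13 of 24 positive with a median of 0.01, or -0.01 under median scaling, pericyte genes 8 of 13, Schwann cell genes 7 of 10 and erythroid genes 2 of 5, with 0 past that p in each. Without diploid mouse 37094, 21 of 24 macrophage and leukocyte genes were positive (median 0.11) with 3 higher past that p, and 4 of 5 erythroid genes were positive. The macrophage and leukocyte median was -0.13 within high-Xist and 0.21 within low-Xist mice.

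**Figure D5:**
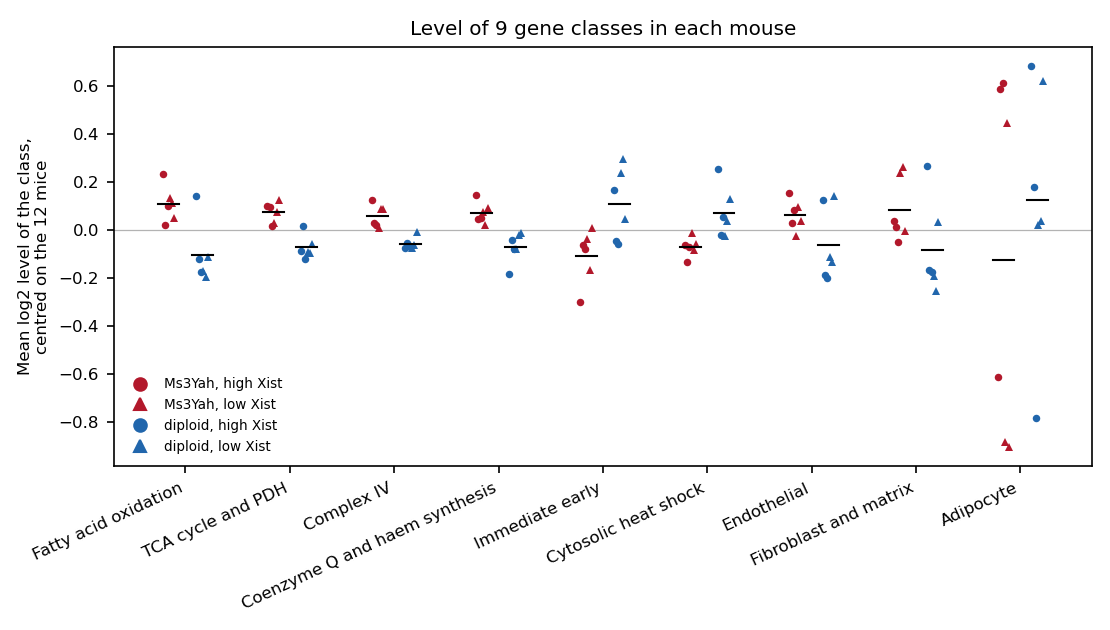
Mean log2 level of 9 gene lists in each mouse, centred on the 12 mice, Ms3Yah (red) left of diploid (blue), with group means as bars, high-Xist mice as circles and low-Xist mice as triangles. Complex IV, citric acid (TCA) cycle and coenzyme Q and haem genes show no overlap, and adipocyte genes spread from -0.90 to 0.68. For the citric acid cycle the lowest Ms3Yah mouse had 0.0162 and the highest diploid mouse 0.0160.

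Immediate early genes, which cells switch on within minutes of a stimulus or of handling, had 2 of 19 detected members positive (median -0.17, or -0.19 to -0.12 with 1 mouse left out), with 4 lower and 0 higher past an unadjusted p of 0.05. The count lower became 7 without diploid mouse 37145, and 2 without diploid mouse 37041 or Ms3Yah mouse 37038 or 37072. Klf2, a factor induced by blood flow, had 308 to 699 (median 489) in Ms3Yah mice and 534 to 999.6 (median 751) in diploid mice, a fold of 0.635. Fos had 140 to 336 (median 174) in Ms3Yah mice and 216 to 659 (median 291) in diploid mice. Junb and Fosl2 had folds of 0.877 and 0.858. All 4 overlapped between the groups, and the list medians were -0.11 within high-Xist and -0.23 within low-Xist mice.

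Cytosolic heat shock genes had 1 of 16 positive members and a median of -0.12, or at most 3 positive with 1 mouse left out, with Hspa1a, the inducible Hsp70, at 127 to 160 in Ms3Yah mice and 143 to 335 in diploid mice. Endoplasmic reticulum stress genes had 11 of 21 positive and a median of 0.00, which was -0.04 under median scaling and -0.02, with 7 positive, without Ms3Yah mouse 37072, with Wfs1, the Wolfram syndrome protein, at a fold of 1.30. Interferon genes had 4 of 21 positive and autophagy genes 7 of 23, both with 0 past an unadjusted p of 0.05. The interferon medians changed sign with single mice, with 16 of 21 positive and a median of 0.04 without diploid mouse 37094, and 11 positive without Ms3Yah mouse 37074. With the adipocyte level as a term 13 interferon genes were positive, and they numbered 10 without diploid mouse 37040 or 37075. Proteasome genes had 13 of 30 positive, and Psmd4, Psmd1 and Psma5 were lower with folds of 0.883, 0.883 and 0.925, a count of 3 that became 6 without diploid mouse 37094 and 5 without 37075. Cytosolic ribosomal proteins had 12 of 49 positive with a median of -0.03 and 0 past that p. That count became 25 without Ms3Yah mouse 37074 (median 0.0028), 22 without Ms3Yah mouse 37039 and 20 without diploid mouse 37094, and within high-Xist mice 34 of 49 were positive (median 0.02).

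By chromosome, the share of detected genes outside the interval past an unadjusted p of 0.05 lay between 5.94% on chromosome 10 and 9.03% on the X chromosome. On chromosome 16 it was 7.46%, with 11 of 295 genes higher and 11 lower.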

How the data were processed

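RNA of the gastrocnemius was hybridised to Illumina MouseWG-6 v2.0 arrays, 1 per mouse. The authors deposited raw probe intensity with a detection p-value for each probe, and a table of processed values. The 12 arrays came from 23 that were quantile normalised together and converted to log2. Probes above the 35th percentile of all signals (89.8) on at least 1 of the 12 arrays were kept, 44363 of 45281, of which 9979 had no gene name. Ms3Yah and diploid arrays alone entered the fit in limma 3.58.1 (R 4.3.3), with Benjamini-Hochberg adjustment over all kept probes and a threshold of 0.05. It was tested on simulated data. The number of arrays limits the precision, and the p-values set the group difference against the spread between mice, moderated over all kept probes.

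Each gene was given by its brightest probe. Of the probes, 34885 had 1 gene in the platform annotation and 18 had several, and 34818 took a current RefSeq symbol. Genes named are those of the interval and its neighbours, the 12 with the smallest p and the 5 with the most extreme folds in each direction, up to 4 per list, and every called probe except 1 that is not reported here. Members and lists were chosen with earlier results of these data known. The arrays had 16945 to 18652 detected probes and raw medians of 84.7 to 101.5. No header of the files used here names the BeadChip of an array, so it could not enter as a block.

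The processed table kept the rank order of the raw signals and is on a linear scale without centring by gene, but the method of its background subtraction is not known. Its medians were 3.83, 3.84, 3.85, 3.81, 3.83 and 3.83 in Ms3Yah mice 37038, 37148, 37448, 37039, 37072 and 37074, and 3.84, 3.82, 3.82, 3.84, 3.82 and 3.83 in diploid mice 37094, 37145, 37146, 37040, 37041 and 37075. It served as an alternative, as did median scaling, neqc, quantile normalisation over the 12 arrays, other filters, the methods' t-test, the Xist split, and leaving out each mouse. Sequences are from RefSeq GRCm38.p6.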

Additional observations from a re-analysis of the deposited data

Results flagged for a closer look

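Of 188 groups of 6 values checked, 14 held a mouse standing apart from the other 5, its gap to the nearest of them exceeding Dixon's critical value, which chance alone passes in about 1 group in 20, or 9.4 groups here. Among genes, Eva1b was 209 in Ms3Yah mouse 37074 and 235 to 246 in the other Ms3Yah mice. Without that mouse Eva1b passed the adjusted threshold (limma adjusted p = 0.0316), which it did under no other of the 24 alternatives. Coq6 was 1447 in Ms3Yah mouse 37039, with 1255 to 1287 in the others, and 1230 in diploid mouse 37075, with 1108 to 1147 in the others. As3mt was 232 in Ms3Yah mouse 37148. Celsr2 was 147 in Ms3Yah mouse 37038, with 156 to 162 in the others, and 221 in diploid mouse 37075, with 178 to 190 in the others. In Ms3Yah mouse 37038 LOC654426 was 4344, with 3378 to 3610 in the others, and Chodl 285, with 212 to 232 in the others.

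Among the mean levels of gene lists, in centred log2 units, complex II was 0.19 in diploid mouse 37145, and complex IV was -0.0085 in diploid mouse 37075, with -0.075 to -0.056 in the other diploid mice. The other 4 were all in diploid mouse 37094, with 0.14 for fatty acid oxidation, -0.18 for mitochondrial fusion, fission and membrane genes, -0.10 for creatine, purine and oxygen handling, and -0.071 for fast fibre genes.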

How the results depend on the processing

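No called gene or probe changed direction under the 24 alternatives, while 9 gene lists with medians near 0 had the other sign under median scaling. Median scaling left 4 probes past the adjusted threshold, 714 probes and 112 detected genes higher past an unadjusted p of 0.05. The processed table gave 472 probes higher and 429 lower past that p, and the fit on detected probes only 537 and 444, where fewer probes were tested. Within high-Xist and within low-Xist mice, with 3 mice of each genotype, 1 probe was called in each. With adipocyte level and the Xist split as terms, chosen after seeing the data, 16 probes were called and 636 detected genes were lower past an unadjusted p of 0.05. Leaving out 1 mouse gave 6 to 9 called probes, 1005 to 1307 probes higher and 998 to 1258 lower, and 333 to 456 detected genes higher and 334 to 481 lower. The methods' t-test called 6 probes after adjustment. The second App probe lost its call without any of Ms3Yah mice 37038, 37148, 37448, 37072 and 37074 or diploid mice 37094, 37145, 37146 and 37075 (adjusted p of 0.0748 to 0.155), and under median scaling (0.247), neqc (0.0594), the processed table (0.272) and the methods' t-test (0.282). Median scaling also ended the calls of the brighter Atp5j probe (0.154) and of LOC654426 (0.381), and within high-Xist or low-Xist mice no probe of App, Atp5j, Jam2 or LOC654426 passed. The cause of these changes was not tested. No paired analysis was possible because the replicate numbers are those of single mice and no number is shared between the groups. Signals near background, as for Gabpa and Nrip1, limit what can be read of 6 interval genes and more.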
